A study of Mus musculus with 12 samples.

Results

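A set of 10 genes of matrix breakdown and cell-surface proteolysis were followed in BV2 cells, an immortalised mouse microglial line. They are the matrix metalloproteinase genes Mmp9, Mmp12 and Mmp14, the sheddase genes Adam8, Adam10 and Adam17, the inhibitor gene Timp2, the urokinase gene Plau and its receptor gene Plaur, and Agrn, which encodes the proteoglycan agrin. They were chosen by name from the 22935 genes of the deposited tables, and each of the 10 symbols matched 1 row. Earlier results of these data were known when they were chosen. The series concerns the C3/C3aR pathway after experimental subarachnoid haemorrhage. Of its 12 samples, 9 were analysed here: 3 of 10 uM oxyhaemoglobin (oxy-Hb), 3 of 10 uM oxy-Hb with C3a (given as 20 ug/ul in the labels, a unit that is uncertain) and 3 of 10 uM oxy-Hb with 50 uM C3aRA, an abbreviation the labels do not spell out. All 9 libraries thus came from cells exposed to oxy-Hb. No value describes the response to oxy-Hb itself, because the 3 samples given PBS only were not used here. The cells are 1 line, and nothing in the labels tells if the replicates were grown as separate cultures. P-values therefore set the group differences only against the variation among these replicates, which may be technical variation.

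Matrix metalloproteinases and ADAMs are zinc-dependent enzymes made with a prodomain that keeps them inactive. The former cut components of the extracellular matrix, and the latter mostly release the outer parts of membrane proteins, such as the cytokine TNF. Urokinase, held on the cell surface by its receptor, converts plasminogen into plasmin, which degrades fibrin and matrix and activates some pro-metalloproteinases. TIMPs block the active site of metalloproteinases, and TIMP2 also takes part in the activation of pro-MMP2 by MMP14. In the brain, microglia are 1 source of these enzymes, which are known for opening the blood-brain barrier and for acting on myelin and perineuronal matrix.

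The libraries held 12934794 to 20479002 counts. Levels are given as CPM, counts relative to the library total, after TMM scaling (trimmed mean of M values), with SDs over the 3 libraries of a group. C3a replicate 2 stood apart from the other 8 libraries, with a first principal component score of 76.3 against -23.8 to 10.8 and a cytosolic ribosomal protein sum of 46038 CPM against 29473 to 33847 CPM (not TMM-scaled). It was the highest or the lowest of the 9 libraries for 5 of the 9 tested members and for 55.6% of all tested genes. Fold changes of the called members with C3a are therefore given with and without it. The myeloid markers Ptprc (404 to 504 CPM), Cd68 (780 to 1070 CPM) and Csf1r (60.7 to 83.4 CPM) were present in every library, whereas the microglial markers P2ry12 (0.236 to 3.76 CPM) and Tmem119 (0.943 to 2.33 CPM) were low and Siglech had no count. Of 9 neutrophil markers, 5 had a row, and these summed to 0.650 to 1.98 CPM with oxy-Hb, 2.97 to 3.76 CPM with C3a and 0.869 to 2.92 CPM with C3aRA (not TMM-scaled). Among them Mpo had no count and Elane reached at most 0.312 CPM, while S100a8 was called higher with C3a than with C3aRA (log2 fold change 2.21, adjusted p = 0.0416). Neutrophils express Mmp9, Adam8 and Plaur too, but the samples are given as BV2 cells, a cultured line. The source of the neutrophil marker counts was not tested.

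Of the members, 4 were called in at least 1 comparison, and their promoters are shown because 2 of these genes stood higher and 2 lower with C3a. Each stretch is the 250 bases upstream of a RefSeq start in GRCm38.p6, read 5′ to 3′ on the gene's own strand. Capitals mark every match, on either strand, to TGANTCA (AP-1), GGGCGG (Sp1) or GAGGAA (PU.1), and matches that overlap run together. Of the 10 members 8 had an entry, with 10 starts, and of the 2 starts of Agrn the upstream one is shown.
Plaur, chr7:24462233-24462482, plus strand: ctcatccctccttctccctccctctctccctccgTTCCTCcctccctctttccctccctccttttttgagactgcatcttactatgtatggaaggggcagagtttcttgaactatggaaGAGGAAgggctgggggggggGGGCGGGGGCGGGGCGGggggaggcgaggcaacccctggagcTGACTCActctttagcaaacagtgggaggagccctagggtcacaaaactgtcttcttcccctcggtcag
Mmp12, upstream start, chr9:7344147-7344396, plus strand: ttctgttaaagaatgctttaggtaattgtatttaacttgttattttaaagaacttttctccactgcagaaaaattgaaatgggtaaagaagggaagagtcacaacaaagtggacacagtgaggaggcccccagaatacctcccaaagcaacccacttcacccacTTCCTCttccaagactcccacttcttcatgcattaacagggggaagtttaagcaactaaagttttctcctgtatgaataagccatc
Mmp12, downstream start, chr9:7347124-7347373, plus strand: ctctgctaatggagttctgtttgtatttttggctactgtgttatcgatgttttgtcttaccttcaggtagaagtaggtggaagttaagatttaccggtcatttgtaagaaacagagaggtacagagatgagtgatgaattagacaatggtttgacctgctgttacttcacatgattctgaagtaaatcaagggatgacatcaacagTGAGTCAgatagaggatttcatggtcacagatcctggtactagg
Adam8, chr7:139992563-139992812, minus strand: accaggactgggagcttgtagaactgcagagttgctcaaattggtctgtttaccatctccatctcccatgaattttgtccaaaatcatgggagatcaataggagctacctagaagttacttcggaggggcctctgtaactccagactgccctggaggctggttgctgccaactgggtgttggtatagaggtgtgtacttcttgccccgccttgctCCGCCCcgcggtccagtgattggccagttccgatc
Agrn, chr4:156197489-156197738, minus strand: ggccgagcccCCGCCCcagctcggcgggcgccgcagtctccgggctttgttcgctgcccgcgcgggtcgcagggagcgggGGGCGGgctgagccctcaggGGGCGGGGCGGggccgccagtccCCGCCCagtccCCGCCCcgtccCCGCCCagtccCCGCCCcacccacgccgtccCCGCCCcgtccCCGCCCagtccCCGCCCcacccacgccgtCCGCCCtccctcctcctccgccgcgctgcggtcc

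The stretch upstream of Plaur held 1 AP-1 match, beginning 69 bases before the start, 3 Sp1 matches side by side and 2 PU.1 matches. Mmp12 has 2 listed starts, of which the upstream one had 1 PU.1 match and the downstream one an AP-1 match beginning 44 bases before the start. Agrn held 12 Sp1 matches in a stretch of 83.6% GC with 35 CpG, and Adam8 held 1 Sp1 match at 52.8% GC with 6 CpG. No AP-1 match lay in the windows of Adam8, Adam10, Adam17, Agrn, Mmp14 or Timp2. Among 32851 such stretches of all genes, 6.7% held an AP-1 match, 32.7% an Sp1 match and 23.3% a PU.1 match, and the medians were 52.4% GC and 6 CpG. A match describes letters only, since no binding was measured.

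Set against each other per kilobase of exon, the members covered a wide range of mRNA levels. Plau was the most abundant, with 248.6 ± 25.3 CPM per kb (SD over 9 libraries), above every library of the next gene. Adam8 (67.6 ± 13.9), Adam17 (53.1 ± 4.04) and Adam10 (46.4 ± 4.47 CPM per kb) followed, and neighbours in this order overlapped between libraries. Plaur came next at 25.5 ± 8.66 CPM per kb and reached the range of Adam10 only in C3a replicate 2 (46.5 CPM per kb). Timp2 stood at 8.0 ± 1.11 CPM per kb, separate from its neighbours in the order. Mmp12 (1.10 ± 0.380), Agrn (1.0 ± 0.368) and Mmp9 (0.474 ± 0.115 CPM per kb) overlapped in turn, and Mmp14 (0.0334 ± 0.0203 CPM per kb) lay below all others. The urokinase and ADAM transcripts thus stood well above those of the metalloproteinases and of agrin.

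**Figure D1:**
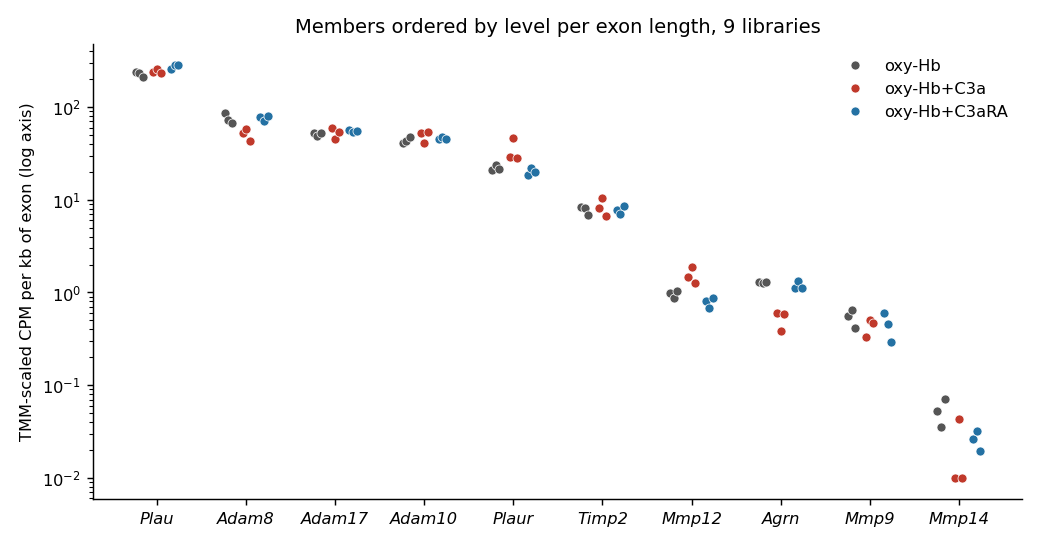
Level of each of the 10 genes as TMM-scaled CPM per kb of exon (log axis), with 1 point per library coloured by treatment, in order of the mean over 9 libraries. Plau lies above all other genes and Mmp14 below, and the ranges of Adam8, Adam17 and Adam10 overlap.

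Of the 10 members, 9 passed the filter on low counts and Mmp14 did not. Because the members were chosen with earlier results known, the shares of all genes given beside them are a description and no test. With C3a against oxy-Hb, 3 of these 9 changed, Plaur rising and Adam8 and Agrn falling, where 3.94% of the 14146 tested genes were called (0.905% higher and 3.04% lower). The C3a libraries lay wholly above the oxy-Hb libraries for 2 tested members (Plaur, Mmp12) and wholly below for 2 (Adam8, Agrn), a separation that 27.8% of all tested genes showed (13.2% above and 14.6% below). The median log2 fold change was 0.10 over the tested members and 0.00 over all genes. With C3aRA against oxy-Hb none of the 9 was called by edgeR in the fit of 9 libraries, where the share of genes called was 0% (0 genes, with 1153 at an unadjusted p below 0.05, and 19 called by DESeq2 and 0 by limma-voom). At an unadjusted p below 0.05 stood 1 member, Plau, where 8.15% of genes did. The C3aRA libraries lay wholly above the oxy-Hb libraries for 2 tested members (Plau, Adam17) and below for 0 of the 9 tested, where 22.9% of genes were separated (11.9% above and 11% below). With C3a against C3aRA 4 were called, Plaur and Mmp12 higher and Adam8 and Agrn lower, where 6.19% of genes were called (2.87% higher and 3.32% lower). These 4 were also the members whose libraries did not overlap, as was so for 28.8% of genes (14.1% above and 14.7% below). In fits of the 2 groups alone, Agrn was the 1 member called with C3a against oxy-Hb, where 0.72% of all genes were called. None was called with C3a against C3aRA (adjusted p from 0.0503 to 0.0753 for the 4), where 0.875% of genes were called. With C3a replicate 2 also left out, these fits called 3 members (1101 of 14215 genes) and 5 members (1938 of 13897 genes). For C3aRA against oxy-Hb a fit of 2 groups called 603 genes (4.43%), among them 1 member, Plau. The first comparison and the second share the oxy-Hb libraries, and the third shares libraries with both, so their values are set side by side and are not independent.

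**Figure D2:**
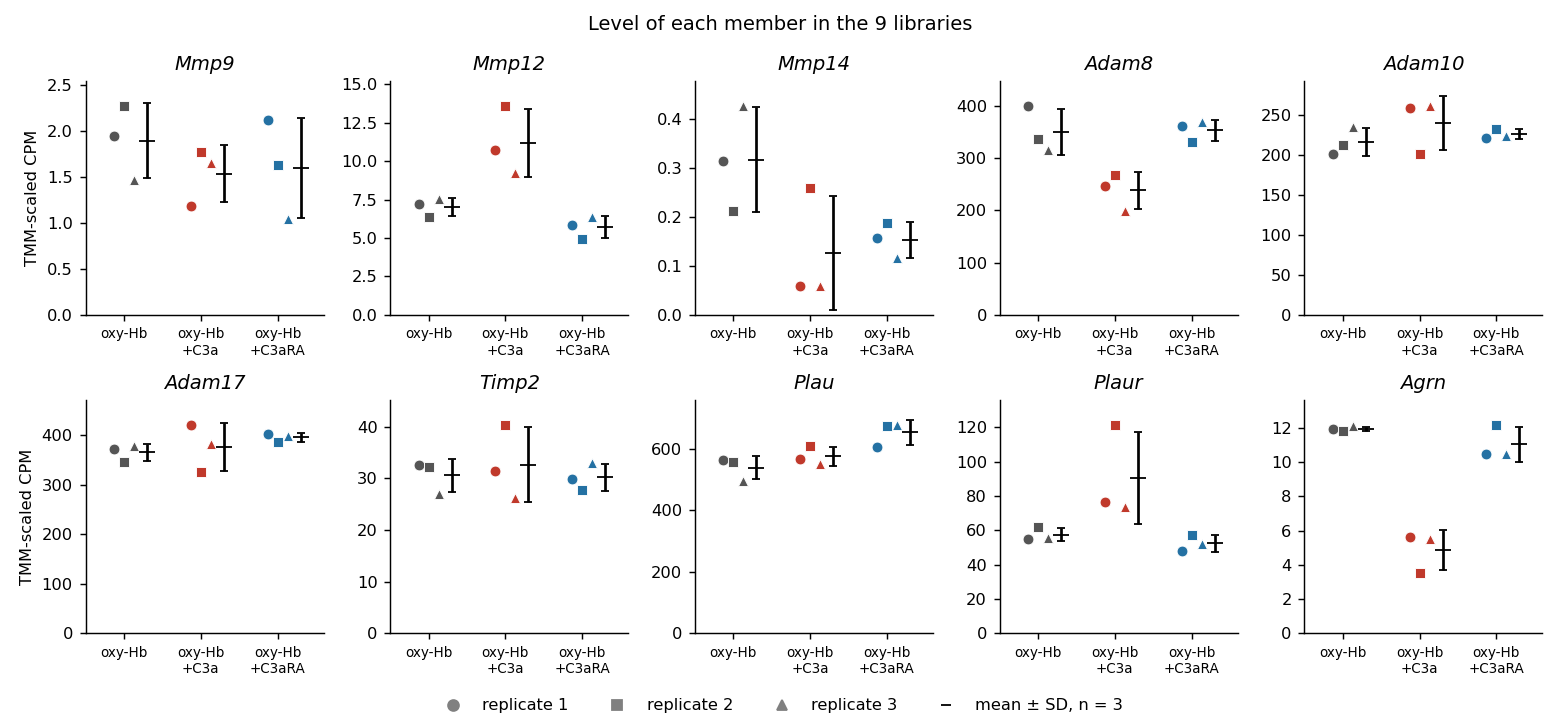
TMM-scaled CPM of each gene in the 9 libraries, by treatment, with a symbol per replicate and, beside each group, the mean and SD (n = 3). The C3a libraries of Agrn and Adam8 lie below all others, and those of Plaur and Mmp12 above all others.

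Plau encodes urokinase, the serine protease that activates plasminogen. Its levels were 563, 556 and 495 CPM with oxy-Hb, 567, 609 and 550 CPM with C3a, and 606, 675 and 678 CPM with C3aRA. The C3aRA libraries lay above all oxy-Hb libraries and just overlapped the C3a libraries. Between C3aRA and oxy-Hb the log2 fold change was 0.28 ± 0.10 (SE; 95% interval 0.07 to 0.49), with an adjusted p of 0.504 in edgeR. The adjusted p was 0.0209 with the same log2 fold change when C3a replicate 2, a library of neither group, was left out, and 0.0176 in a fit of these 2 groups alone. For Plau in this comparison the authors' deposited table gives an adjusted p of 0.00218. Between C3a and oxy-Hb the log2 fold change was 0.10 ± 0.10 (SE; 95% interval -0.11 to 0.31). Between C3a and C3aRA it was -0.18 ± 0.10 (SE), with an adjusted p of 0.273 that became 0.0415 without C3a replicate 2 (-0.23) and 0.037 with a length and GC correction (-0.27).

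Plaur encodes the urokinase receptor, a surface protein with a lipid anchor that also binds vitronectin and integrins. Its levels were 55.1, 61.8 and 55.8 CPM with oxy-Hb, 76.6, 122 and 73.4 CPM with C3a, and 47.8, 57.4 and 51.9 CPM with C3aRA. All C3a libraries lay above all others, and C3a replicate 2 stood far above the other C3a libraries. Plaur rose with C3a against oxy-Hb by 0.65 ± 0.17 on the log2 scale (SE; adjusted p = 0.0447), a 1.57-fold difference, and was higher with C3a than with C3aRA by 0.79 ± 0.17 (SE; adjusted p = 0.0189). Without C3a replicate 2 these values were 0.38 (adjusted p = 0.0176) and 0.51 (adjusted p = 0.00104), so both calls held at a smaller size. Fits that each left out 1 library kept the call against oxy-Hb in 3 of 9 cases. Dropping a single oxy-Hb or C3aRA library ended it (adjusted p from 0.0757 to 0.208), and it was also lost with total count scaling (0.0616) and with limma-voom (0.0531). The call against C3aRA held in 6 of 9 and was lost without any 1 of the C3aRA libraries. Between C3aRA and oxy-Hb Plaur had a log2 fold change of -0.14 ± 0.17 (SE; 95% interval -0.50 to 0.22). Plaur was thus highest with C3a, while Plau had its highest values with C3aRA but was not called in the fit of 9 libraries. The changes of receptor and enzyme were not compared by a test.

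Mmp12 encodes macrophage elastase, which cuts elastin and other matrix proteins. Its levels were 7.23, 6.35 and 7.51 CPM with oxy-Hb, 10.7, 13.6 and 9.22 CPM with C3a, and 5.82, 4.97 and 6.36 CPM with C3aRA. The C3a libraries lay above all others, and the other groups overlapped only through the highest C3aRA and the lowest oxy-Hb library. Against oxy-Hb the log2 fold change with C3a was 0.67 ± 0.20 (SE), with an adjusted p of 0.0753 in edgeR and 0.0301 in DESeq2, and 0.50 without C3a replicate 2 (edgeR adjusted p = 0.154). Against C3aRA it was 0.97 ± 0.21 (SE; adjusted p = 0.0189), or 1.96-fold, and 0.80 without C3a replicate 2 (adjusted p = 0.0161). That call held in 6 of 9 leave-one-out fits and was lost without any 1 of the C3aRA libraries. Between C3aRA and oxy-Hb Mmp12 had a log2 fold change of -0.30 ± 0.21 (SE; 95% interval -0.75 to 0.15).

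Mmp9 encodes gelatinase B, an enzyme that degrades basement membrane collagen. With 18 to 43 counts per library it stood at 1.95, 2.27 and 1.47 CPM with oxy-Hb, 1.19, 1.77 and 1.66 CPM with C3a, and 2.12, 1.64 and 1.04 CPM with C3aRA. The groups overlapped throughout, and the 95% intervals of the log2 fold changes were wide, from -1.18 to 0.57 for C3a and from -1.14 to 0.63 for C3aRA against oxy-Hb. Mmp14 encodes a membrane-bound metalloproteinase. It had 5, 4 and 7 counts with oxy-Hb, 1, 5 and 1 with C3a, and 2, 3 and 2 with C3aRA, close to the floor of 3 counts. Its C3aRA libraries thus lay below its oxy-Hb libraries, by a few counts, while the C3a libraries overlapped both. Mmp14 was not tested because it failed the count filter, and no fold is given at such counts.

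**Figure D3:**
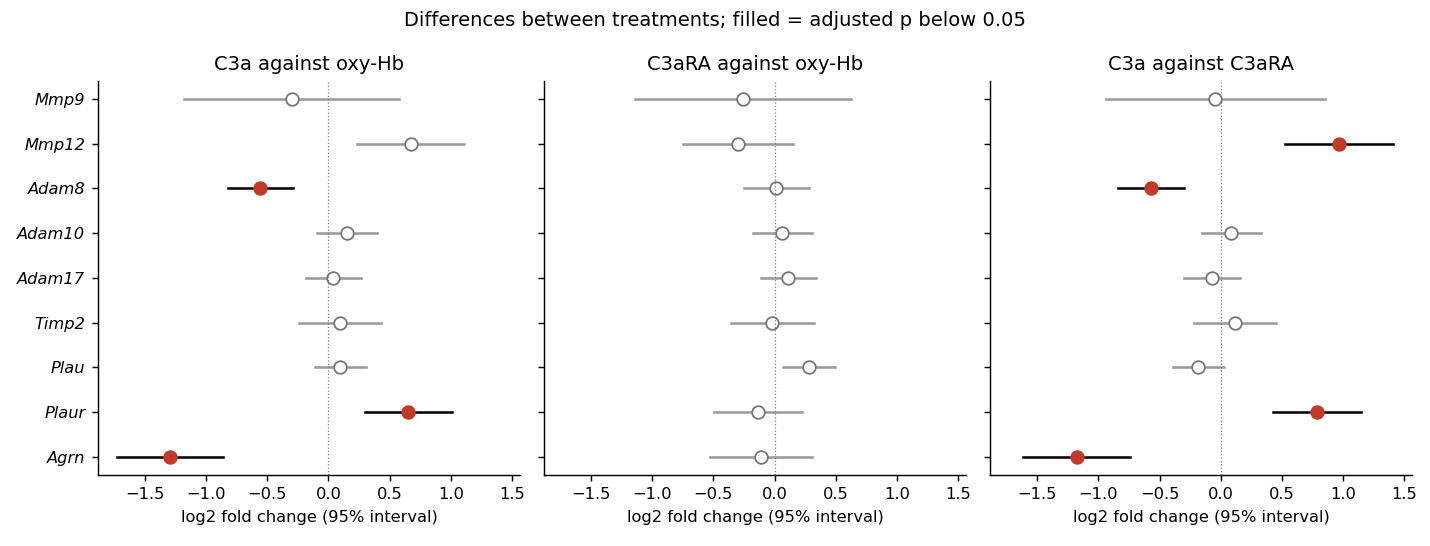
Log2 fold changes of the 9 tested genes in the 3 comparisons, with 95% intervals from the fit of 9 libraries; filled points passed at an adjusted p below 0.05. Agrn and Adam8 lie below 0 and Plaur above 0 in both comparisons with C3a, Mmp12 passes against C3aRA, and no gene passes between C3aRA and oxy-Hb.

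Among the sheddases, Adam8 alone was called in the fit of 9 libraries. It encodes a membrane protease of leukocytes that cuts adhesion molecules and receptors. Its levels were 399, 336 and 314 CPM with oxy-Hb, 246, 268 and 199 CPM with C3a, and 360, 330 and 369 CPM with C3aRA, and every C3a library lay below every other library. Adam8 fell with C3a against oxy-Hb by 0.56 on the log2 scale (SE 0.13, adjusted p = 0.0258) and was lower with C3a than with C3aRA (log2 fold change -0.57 ± 0.13 SE, adjusted p = 0.0206). Without C3a replicate 2 both differences were larger (-0.66, adjusted p = 3.06e-05, and -0.67, adjusted p = 2.87e-05). The first call held in 3 of 9 leave-one-out fits and was lost without oxy-Hb replicate 1 or 2, C3a replicate 3 or any 1 of the C3aRA libraries (adjusted p from 0.0505 to 0.18). The second held in 5 and was lost without C3a replicate 3 or any 1 of the C3aRA libraries. Against oxy-Hb the edgeR value was -0.39 (adjusted p = 0.031) with the length and GC correction. It was -0.57 in the fit of 2 groups alone, where the call was lost (adjusted p = 0.107). Adam8 with C3aRA and with oxy-Hb had a log2 fold change of 0.01 ± 0.12 (SE; 95% interval -0.25 to 0.28).

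Adam10 encodes the main sheddase of Notch receptors and of the amyloid precursor. It stood at 201, 213 and 235 CPM with oxy-Hb, 259, 202 and 262 CPM with C3a, and 221, 234 and 225 CPM with C3aRA. C3a replicate 2 lay about at the lowest oxy-Hb library, and the other C3a libraries lay above all others. The log2 fold change with C3a against oxy-Hb was 0.15 ± 0.11 (SE; 95% interval -0.09 to 0.40, adjusted p = 0.43) and became 0.26 (adjusted p = 0.0273) without C3a replicate 2. Adam17 encodes the enzyme that releases TNF from the cell surface. It stood at 373, 347 and 379 CPM with oxy-Hb, 422, 326 and 382 CPM with C3a, and 403, 386 and 399 CPM with C3aRA, with C3a replicate 2 the lowest of all. Its 95% intervals against oxy-Hb were -0.19 to 0.27 with C3a and -0.11 to 0.34 with C3aRA.

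Timp2 encodes a secreted inhibitor of metalloproteinases. Its levels were 32.7, 32.1 and 27.0 CPM with oxy-Hb, 31.5, 40.4 and 26.1 CPM with C3a, and 29.9, 27.7 and 33.0 CPM with C3aRA. The groups overlapped, with C3a replicate 2 the highest and C3a replicate 3 the lowest of the 9 libraries. The log2 fold change was 0.10 ± 0.16 (SE; 95% interval -0.24 to 0.43) with C3a against oxy-Hb and -0.09 without C3a replicate 2. With C3aRA against oxy-Hb it was -0.02 ± 0.16 (SE; 95% interval -0.36 to 0.32).

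Agrn encodes agrin, a heparan sulphate proteoglycan of basement membranes and synapses. It had the largest change of the 9 tested members. Its levels were 11.9, 11.9 and 12.1 CPM with oxy-Hb, 5.63, 3.54 and 5.50 CPM with C3a, and 10.5, 12.2 and 10.5 CPM with C3aRA. The 3 oxy-Hb libraries lay close together, the C3aRA libraries overlapped them, and all C3a libraries lay below both, with C3a replicate 2 the lowest. Agrn fell with C3a against oxy-Hb by 1.29 on the log2 scale (SE 0.20, adjusted p = 0.00426), to 0.408 of its level. Against C3aRA the log2 fold change was -1.18 ± 0.20 (SE, adjusted p = 0.00846). Both calls held in all 9 leave-one-out fits, and without C3a replicate 2 the values were -1.11 and -0.99. The transcript is long and rich in GC (8612 bases, 56.5% GC), and after a correction for length and GC content the values were -0.81 (adjusted p = 0.0183) and -0.79 (adjusted p = 0.0125). A lower level in every cell and fewer expressing cells cannot be told apart in these bulk samples.

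**Figure D4:**
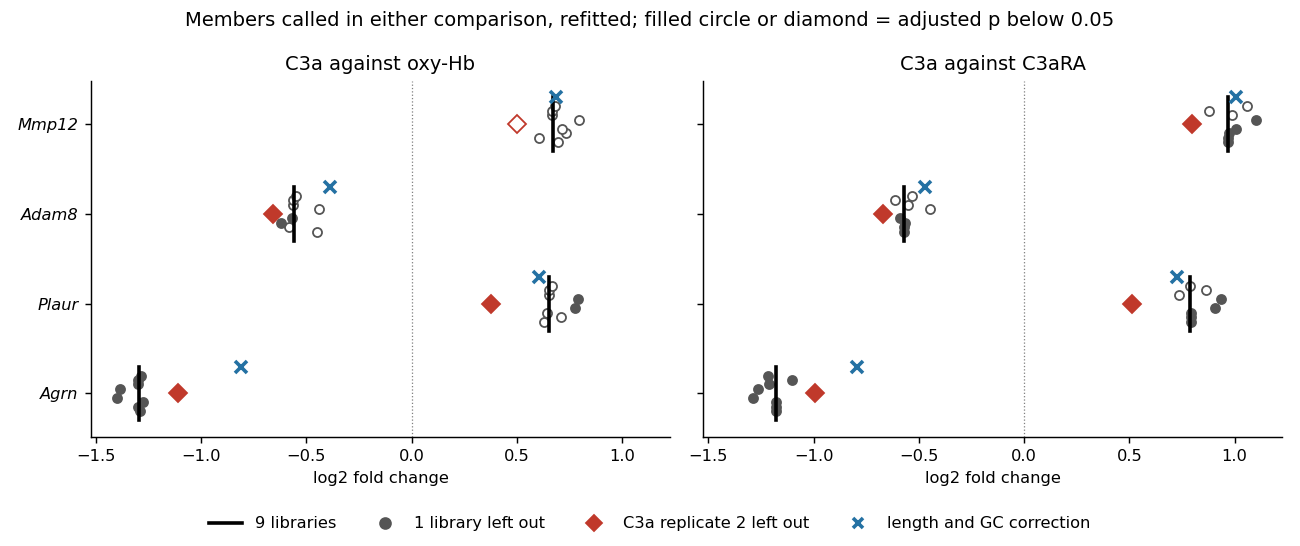
Log2 fold changes of the 4 called genes in both comparisons with C3a, in the fit of 9 libraries (bar), with 1 library left out (circles, and a diamond for C3a replicate 2) and with a length and GC correction (cross); filled circles and diamonds passed at an adjusted p below 0.05. The Agrn points are all filled, and the diamond of Plaur lies nearer to 0 than its circles.

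Other genes of pericellular proteolysis were taken from 8 lists with 148 genes, of which 88 had a row in the tables and 77 were tested. These lists too were chosen with earlier results of these data known, so their shares are no test either. With C3a against oxy-Hb 2 rose and 3 fell, or 6.49%, with C3aRA against oxy-Hb 0 were called, and with C3a against C3aRA 3 were higher and 3 lower, or 7.79%. In that fit of 9 libraries the shares of all genes called were 3.94%, 0% and 6.19%. The counts depended on the fit, for the lists as for all genes. With C3a against oxy-Hb, 9 rose and 2 fell (14.3%, against 5.36% of all genes) with the length and GC correction, 11 rose and 4 fell (19.5%, against 9.52%) with DESeq2, and 7 rose and 6 fell (16.9%, against 9.55%) without C3a replicate 2. In fits of 2 groups alone, 0 rose and 2 fell (Adamts10 and Notch2) with C3a against oxy-Hb (2.6%, against 0.72% of all genes). With C3a against C3aRA, 1 gene, Tnf, was called (1.35%, against 0.875%). Such a fit of C3aRA against oxy-Hb had 7 rising and 2 falling (12.2%, against 4.43% of all genes), and 6 rose and 2 fell (10.4%, against 3.25%) in the fit of 8 libraries without C3a replicate 2. With C3a against C3aRA, 6 were higher and 9 lower (19.5%, against 12.5%) without C3a replicate 2. In that comparison the share of the lists lay below that of all genes with the length and GC correction (7.79%, against 8.88%). It also lay below with DESeq2 (10.4%, against 11%). Of the 5 other metalloproteinase genes tested none was called, and Mmp2, the gelatinase that MMP14 activates, had the lowest p in all 3 comparisons (log2 fold changes 0.23, 0.43 and -0.20). Of 9 other ADAM and ADAMTS genes Adamts10, a secreted protease linked to fibrillin microfibrils, fell with C3a. Its levels were 48.5, 42.6 and 37.7 CPM with oxy-Hb, 23.0, 18.7 and 25.1 CPM with C3a, and 39.9, 41.2 and 33.2 CPM with C3aRA, so the C3a libraries lay below all others. The log2 fold changes were -0.95 ± 0.15 (SE, adjusted p = 0.00405) against oxy-Hb, held in all 9 leave-one-out fits, and -0.77 ± 0.15 (SE, adjusted p = 0.0117) against C3aRA, held in 7 and lost without C3aRA replicate 1 or 2. With the length and GC correction the values were smaller, at -0.635 (adjusted p = 0.0165) and -0.586 (adjusted p = 0.0151). The call against C3aRA was also lost in the fit of 2 groups alone (adjusted p = 0.052).

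None of 4 inhibitor and activator genes was called, among them Furin, the convertase that removes prodomains (-0.47, adjusted p = 0.25, with C3a against oxy-Hb). None of 5 partners of ADAM10 and ADAM17 was called either, with Rhbdf2, which brings ADAM17 to the cell surface, at -0.47 (adjusted p = 0.112). Of 18 substrates of these sheddases, Notch2 fell with C3a against oxy-Hb (-0.74 ± 0.12 SE, adjusted p = 0.00561) and was lower than with C3aRA (-0.65 ± 0.12 SE, adjusted p = 0.0113). After the length and GC correction these were -0.26 (adjusted p = 0.132) and -0.24 (adjusted p = 0.14), and both calls ended. The first call was also lost without oxy-Hb replicate 1, and the second without any 1 of the C3aRA libraries. Tnf, the cytokine that ADAM17 releases, was lower with C3a than with C3aRA (-0.63 ± 0.11 SE, adjusted p = 0.0104), a call lost without C3aRA replicate 1 (adjusted p = 0.0822). Its levels were 183, 171 and 143 CPM with oxy-Hb, 150, 149 and 135 CPM with C3a, and 245, 221 and 205 CPM with C3aRA, so the C3aRA libraries lay above all others. Trem2, a lipid receptor of microglia shed by both enzymes, was higher with C3a than with C3aRA (0.44 ± 0.12 SE, adjusted p = 0.0495), a call held in 2 of 9 leave-one-out fits, and at 0.28 without C3a replicate 2.

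Among 13 other genes of the urokinase and plasminogen system, Itgam, the integrin chain CD11b that associates with the urokinase receptor, rose with C3a against oxy-Hb (0.69 ± 0.18 SE, adjusted p = 0.0498). Its value was 0.38 without C3a replicate 2 (91.1 CPM in that library against 51.9 and 55.6 CPM in the other C3a libraries). The call held in 3 of 9 leave-one-out fits and ended with the length and GC correction (adjusted p = 0.0854). Lrp1, the endocytic receptor that clears urokinase bound to its inhibitor, fell (-1.20 ± 0.23 SE, adjusted p = 0.0184). The call held in 7 of 9 leave-one-out fits, and was lost without oxy-Hb replicate 1 or 2 (adjusted p from 0.0641 to 0.0861) and in the fit of 2 groups alone (adjusted p = 0.051). It stood at 344, 324 and 311 CPM with oxy-Hb, 170, 79.6 and 177 CPM with C3a, and 192, 198 and 238 CPM with C3aRA, so libraries of both additions lay below those of oxy-Hb. With the length and GC correction the Lrp1 value was -0.53 (adjusted p = 0.00854). S100a10, a plasminogen receptor subunit, was higher with C3a than with C3aRA (0.45 ± 0.13 SE, adjusted p = 0.0495), held in 2 of 9 leave-one-out fits. It was 0.27 without C3a replicate 2 and 0.24 (adjusted p = 0.0522) with the length and GC correction, which ended the call.

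Of 8 agrin partners and heparan sulphate proteoglycans, Sdc4, the surface proteoglycan syndecan 4, rose with C3a. Its levels were 70.3, 72.1 and 71.9 CPM with oxy-Hb, 101, 94.5 and 88.5 CPM with C3a, and 72.7, 61.4 and 72.1 CPM with C3aRA, so all C3a libraries lay above the others. The log2 fold changes were 0.41 ± 0.11 (SE, adjusted p = 0.0479) against oxy-Hb, held in 1 of 9 leave-one-out fits, and 0.46 ± 0.11 (SE, adjusted p = 0.0253) against C3aRA, held in 5. The length and GC correction ended the call against oxy-Hb (adjusted p = 0.0516). None of the 15 cathepsin and cystatin genes was called, with a median log2 fold change of 0.34 with C3a against oxy-Hb that was 0.12 without C3a replicate 2, when 2 rose, and DESeq2 called 4. Ctsk, a collagen-cutting cathepsin, had the lowest p (0.62, adjusted p = 0.0691). Between C3aRA and oxy-Hb the genes of lowest p in their lists included Tnf (log2 fold change 0.43, adjusted p = 0.479) and Lrp1 (-0.64, adjusted p = 0.518), and the cathepsin gene Ctsb stood at 0.29 (adjusted p = 0.565).

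**Figure D5:**
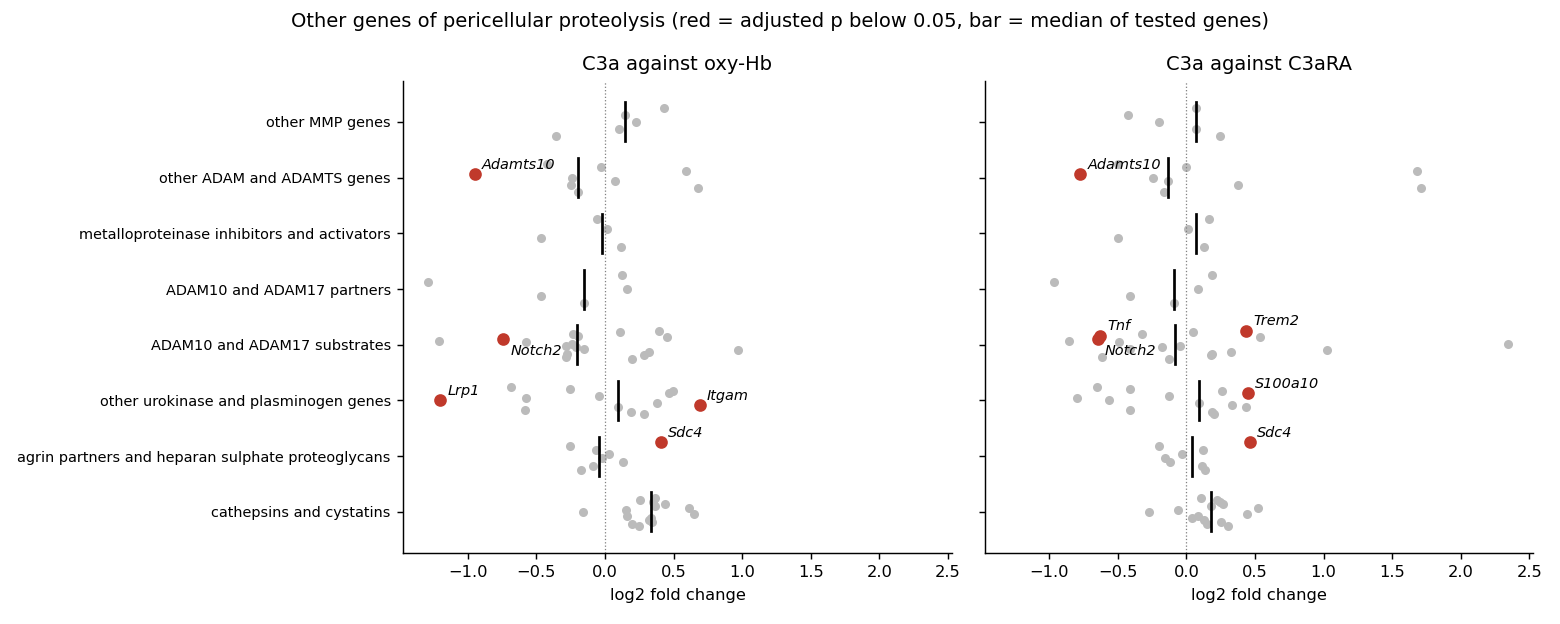
Log2 fold changes of the 77 other tested genes by list, with C3a against oxy-Hb (left) and against C3aRA (right); red points with names passed at an adjusted p below 0.05 and bars are list medians. Adamts10 and Notch2 lie below 0 and Sdc4 above 0 in both panels.

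For each called member the closest genes in pattern were sought among genes averaging 5 CPM or more, by the root mean square difference of centred log2 CPM over 9 libraries. C3a replicate 2 is among these libraries, and likeness without it was not computed, so closeness may rest partly on that library. For Agrn these were Cit, the citron kinase of cytokinesis (0.12), Dnah6, an axonemal dynein (0.14), and Zbtb34 (0.14), where the median over all such genes was 0.65. For Plaur they were Magoh, of the exon junction complex (0.08), Gpx1, a glutathione peroxidase (0.09), and Gm10221 (0.10), against a median of 0.41. Adam8 was closest to Agap1 (0.07), Pacs2 (0.08) and Pyroxd2 (0.10), against a median of 0.37. Mmp12 was closest to Fcgr4, an IgG receptor (0.13), Rwdd2b (0.14) and Rgs2, which curbs G protein signals (0.14), against a median of 0.45.

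In the authors' deposited tables the adjusted p with C3a against oxy-Hb was 0.0239 for Adam8, 0.0313 for Plaur and 0.000196 for Agrn, and 0.104 for Mmp12. With C3aRA against oxy-Hb Plau was the 1 member past 0.05 there. Exons of Adam17, Mmp12 and Adam8 overlap those of Iah1, Mmp1b and Gm16201 on the opposite strand over 311, 157 and 46 bases. In this order, that is 4.3%, 2.2% and 1.0% of the exon bases of the member. Reads in these overlaps cannot be told apart without a strand setting.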

How the data were processed

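RNA of BV2 cells was sequenced from 12 samples (SMARTER mRNA-seq kit, per the labels), of which the 9 with columns in the tables were used. The authors deposited raw read counts per Ensembl gene, and per the file headers each gene also carries their log2 fold change with raw and adjusted p-values. GRCm38 and mm10 are the builds in the submitters' processing notes. Aligner, counter, strand setting and the test behind the authors' p-values: not given in the sources used here.

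Both tables list 22935 genes, and 0 oxy-Hb counts differed between them, so all 9 libraries entered 1 fit. Genes kept by filterByExpr (minimum count 10) were scaled with TMM and tested with edgeR 4.0.16 in R 4.3.3 (robust quasi-likelihood F test). A gene was called when its Benjamini-Hochberg adjusted p over all 14146 tested genes was below 0.05. SEs were derived from the F statistics. Totals ran from 12934794 to 20479002 counts, where 3 counts, the floor used here, equalled 0.146 to 0.232 CPM (counting error only). The biological coefficient of variation was 15.8% (common dispersion). The scripts were tested on simulated data.

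The members, lists and tests were chosen with earlier results of these data known. Named genes were the 10 members, up to 4 called genes per list and comparison (with no call, the gene of lowest p), and the 3 genes closest in pattern to each called member. Alternatives were other scalings, filters, tests (DESeq2 1.42.0, limma 3.58.1), fits of 2 groups, a replicate block, a length and GC correction (splines on GENCODE M21 transcripts, known for 99.9% of tested genes) and leaving out each library. Those that combined the omission of C3a replicate 2 with another change, and the refits of the lists, were chosen after seeing the data. Promoter letters came from RefSeq (GRCm38.p6).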

Additional observations from a re-analysis of the deposited data

How the results depend on the processing

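The number of members called with C3a against oxy-Hb was 3, and 1 in a fit of these 2 groups alone. It ran from 1 to 4 over the 9 fits that left out 1 library. With C3aRA against oxy-Hb it was 0, and 1 (Plau) in a fit of these 2 groups alone, with sample quality weights, and without C3a replicate 2 with the length and GC correction. It ran from 0 to 1 when 1 library was left out. With C3a against C3aRA it was 4, and 0 in a fit of these 2 groups alone. It ran from 1 to 5 when 1 library was left out. In fits of 2 groups that also left out C3a replicate 2, 3 members (Adam8, Plaur, Agrn) were called with C3a against oxy-Hb. With C3a against C3aRA such a fit called 5 (Mmp12, Adam8, Plau, Plaur, Agrn). These fits called 1101 of 14215 and 1938 of 13897 genes. Where a call was lost, the cause was not tested. In the comparisons where it was called, no member changed direction under any alternative run. Members not called in a comparison could lie on either side of 0 there. With C3aRA against oxy-Hb these included Adam8 (0.01) and Timp2 (-0.02). With C3a against oxy-Hb they included Adam17 (0.04), Timp2 (0.10) and Plau (0.10). Over all genes, 558 were called with C3a against oxy-Hb (128 higher and 430 lower) and 757 with the length and GC correction (397 and 360). That count was 1033 without a filter, 1346 with DESeq2, 1606 with quality weights, 99 in a fit of 2 groups and 54 to 1638 with 1 library left out. Total count scaling gave 34 higher and 664 lower. With C3aRA against oxy-Hb the count was 0, and 8 without a filter, 19 with DESeq2, 401 with quality weights, 603 in a fit of 2 groups and 0 to 475 with 1 library left out. With C3a against C3aRA it was 876, and 1559 with DESeq2, 1959 with quality weights, 118 in a fit of 2 groups and 53 to 1827 with 1 library left out. Without C3a replicate 2 and with the length and GC correction, the counts in the 3 comparisons were 1282, 800 and 1975.

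Same-numbered replicates of different groups deviated together little (correlations across genes from -0.041 to 0.17, above 0.1 in 2 of 9 pairs). The labels state no block, and low correlations cannot show that none was shared. A replicate block gave 3, 0 and 4 members called, and 835, 0 and 1210 genes. With both the block and the length and GC correction, 3, 0 and 5 members were called, and 1096, 38 and 1605 genes. Of the 9 libraries, 6 correlated best with one of their own number. A pair can count for both of its libraries, and the number expected without a block was not computed. The count therefore cannot tell if a block was shared. Mmp14 and Mmp9 are limited by depth.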
